A study of Mus musculus with 4 samples.

Results

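The interleukin-1 (IL-1) family was followed through 9 transcripts of mouse leukaemic cells: the agonists Il1a, Il1b, Il18 and Il36g, the signalling receptor chains Il1r1 and Il1rap, and the antagonists and decoys Il1rn, Il1r2 and Il18bp. They were taken by gene name from a table of 24497 mouse rows, and all 9 were found, Il36g under its older symbol Il1f9. The cells were acute myeloid leukaemia (AML) cells made from bone marrow stem cells of wild-type (WT) or Tet2-/- mice. All groups carried NRAS, a RAS oncogene, and AE9a, a truncated form of the AML1-ETO fusion. The cells had been cultured with SCF, IL-3 and IL-6 under G418 and puromycin, so every group had been exposed to these cytokines and drugs. They were transplanted into lethally irradiated (900 cGy) CD45.1+ C57 B6.SJL recipients aged 6 to 8 weeks, and CD45.2 cells were enriched from the spleen for RNA-seq. There were 2 WT libraries and 2 labelled Tet2 KO, called the KO-labelled libraries here. The labels give no donor age, no Tet2 allele and no number of mice. The host's own blood cells carry CD45.1, and the labels do not state the purity of the enrichment.

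IL-1α and IL-1β, the products of Il1a and Il1b, bind the receptor IL-1R1, which then recruits the accessory chain encoded by Il1rap and signals through MyD88 to NF-κB. The receptor antagonist (Il1rn) occupies the same receptor without signalling, and IL-1R2 is a decoy that binds IL-1 but has no signalling domain. IL-18 uses its own receptor pair and is held in check by IL-18 binding protein (Il18bp), while IL-36γ (Il36g) signals through the receptor encoded by Il1rl2 together with the Il1rap chain. Monocytes, macrophages and neutrophils are major sources of these proteins, and IL-1 acts on blood stem cells and on leukaemic cells.

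The sequences before the start sites of 4 members are shown because Il1a and Il1b fell while Il36g and Il1rn rose. Each is 250 bases, 5′ to 3′ on the gene's strand, from RefSeq on build GRCm38.p6 (mm10), and entries were present for all 9 members. Capitals mark matches on either strand to TATAAA (the TATA box), GAGGAA (PU.1), TTNNGNAA (C/EBP) or TGANTCA (AP-1). GAAANNGAA (IRF) and the κB consensus were also searched and had no match in these 5 windows. Il1rn has several start sites, which give secreted and intracellular forms, and 2 of the windows are given.
Il1a, chr2:129309973-129310222, minus strand: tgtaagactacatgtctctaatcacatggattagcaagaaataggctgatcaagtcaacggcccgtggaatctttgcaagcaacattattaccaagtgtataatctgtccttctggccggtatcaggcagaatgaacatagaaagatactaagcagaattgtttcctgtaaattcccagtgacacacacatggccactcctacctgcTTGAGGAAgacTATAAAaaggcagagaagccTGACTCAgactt
Il1b, chr2:129371140-129371389, minus strand: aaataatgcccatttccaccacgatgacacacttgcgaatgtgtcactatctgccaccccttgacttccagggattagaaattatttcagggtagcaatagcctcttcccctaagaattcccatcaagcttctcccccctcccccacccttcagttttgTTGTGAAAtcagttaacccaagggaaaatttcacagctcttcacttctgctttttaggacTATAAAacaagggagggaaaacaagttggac
Il36g, chr2:24186226-24186475, plus strand: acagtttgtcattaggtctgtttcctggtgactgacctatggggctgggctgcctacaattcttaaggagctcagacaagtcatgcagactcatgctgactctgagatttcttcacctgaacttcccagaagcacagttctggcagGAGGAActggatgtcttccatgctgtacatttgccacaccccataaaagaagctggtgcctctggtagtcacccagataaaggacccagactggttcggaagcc
Il1rn, first start, chr2:24336610-24336859, plus strand: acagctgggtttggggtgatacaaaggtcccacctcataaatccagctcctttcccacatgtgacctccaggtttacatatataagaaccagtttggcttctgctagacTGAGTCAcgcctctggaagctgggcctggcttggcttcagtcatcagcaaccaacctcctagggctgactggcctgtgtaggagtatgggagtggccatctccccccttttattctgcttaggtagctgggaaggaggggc
Il1rn, second start, chr2:24345041-24345290, plus strand: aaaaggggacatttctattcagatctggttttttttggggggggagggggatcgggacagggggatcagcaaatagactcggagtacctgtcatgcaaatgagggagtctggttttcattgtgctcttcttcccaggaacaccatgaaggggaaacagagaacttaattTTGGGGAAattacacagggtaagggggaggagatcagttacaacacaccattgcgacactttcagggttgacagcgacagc

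A TATA box lay 32 to 27 bases before the start of Il1a and 31 to 26 bases before that of Il1b. None was found in the windows of Il36g and Il1rn. Of the 12 windows of the 9 members 3 held a match. The other was that of Il18, where TATAAA lay on the opposite strand, 175 to 170 bases before the start. Il18bp, which also fell, held none. Of 32851 windows of the same length over all genes, 12.4% held a TATA box, 36.8% a C/EBP match, 23.3% a PU.1 match, 7.13% an IRF match, 6.75% an AP-1 match and 7.25% a κB match. A C/EBP match was found in 7 of the 12 windows of the members, the count to set beside the share over all windows. These windows belong to 5 of the 9 members, namely Il1a, Il1b, Il1r1, Il1rn and Il18bp. Il1r1 and Il1rn gave more windows than the other members, and some of the Il1rn windows overlap. In Il1a the C/EBP match overlaps the PU.1 match. No IRF match was found in any of the 12 windows of the members. These are matches of letters only, and a window without one says nothing of the factor.

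TPM, an abundance per transcript length scaled to the same total in every library, does not keep read depth, which was estimated at 19.7 to 25.2 M reads per library (M, 1e6) from the spacing of low values. The WT libraries differed little. Over 2326 genes with a single RefSeq mRNA their variance came to 1.10 times the one expected from sampling alone (robust estimate), against 6.89 times over 2409 genes for the KO-labelled libraries. Without the robust estimate the ratios were 1.83 and 54.6, and over the 10% of these genes with the most reads they were 1.81 and 226 (robust), so sampling does not cover all of the WT difference. To be cautious, the WT libraries were averaged as 1 sample (n = 1), and values of the other group are means ± SD (n = 2). Whether 1 mouse or several gave a group's libraries is not in the labels, and the p-values therefore reflect only how far these libraries differ, which may be technical. Tet2 itself was not lower, at 43.5 and 43.7 TPM in WT versus 63.7 and 68.1 TPM in the KO-labelled libraries, and gene-level TPM cannot show the loss of single exons. All directions thus rest on the labels. Xist, which marks an inactive X chromosome, was 0.34 TPM in either WT library but 86.1 and 28.2 TPM in the others. The Y-linked Eif2s3y was 107 TPM in either WT library, and 29.8 and 90.4 TPM in the others, so both transcripts were present in both KO-labelled libraries. ERCC spike-in RNAs took 4.66% and 4.62% of TPM in WT versus 2.95% and 3.19% in the KO-labelled libraries. Scaling to ERCC moved the median log2 change of all genes from -0.12 to 0.43.

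Of the 9 members, 4 rose in the KO-labelled libraries (Il36g, Il1r1, Il1rap and Il1rn) and 3 fell (Il1a, Il1b and Il18bp), while Il18 and Il1r2 did not pass the threshold. Differences were tested with limma on log2(TPM + 1) over 11919 genes, at an adjusted p of 0.05 over all of them, and fold changes on this scale understate the change of low genes. Over all genes tested, 22.1% were higher and 26.7% lower. The groups did not overlap for any of the 9 members, which was also so for 87.0% of all genes tested. By role, 1 of 4 agonists rose and 2 fell, both signalling receptor chains rose, and 1 of 3 antagonists and decoys rose and 1 fell. Without the filter on low values, the call of Il36g was kept and the other 6 were lost. With ERCC scaling all 9 kept their direction, but Il1b and Il18bp lost their call and Il1r2 gained one as higher.

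**Figure D1:**
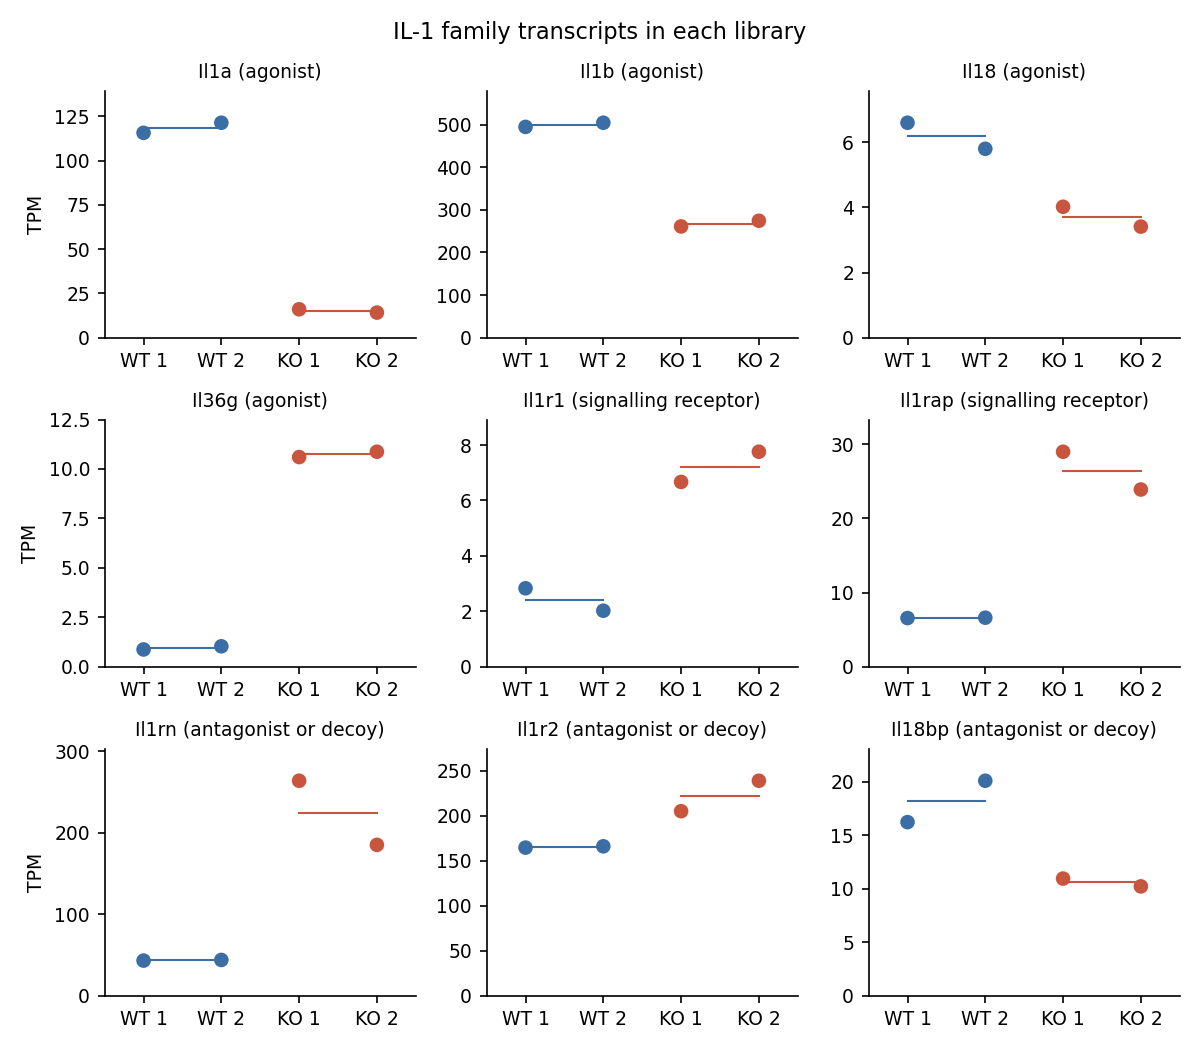
Each panel plots the TPM of 1 member (linear axis from 0) in the WT libraries (blue, WT 1 and WT 2) and in the KO-labelled ones (red, KO 1 and KO 2), with lines at the group means. Il1a falls from 116 and 121 TPM to 16.0 and 14.2 TPM, while Il1rn rises from 43.0 and 43.9 TPM to 264 and 185 TPM.

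Among the agonists, Il1a showed the largest fall of the members. IL-1α is active as its precursor and is released by damaged cells. Il1a (chromosome 2, 129299610 to 129309972, minus strand, mm10) measured 116 and 121 TPM in WT versus 16.0 and 14.2 TPM in the KO-labelled libraries. Both WT libraries were far above both others, and the mean was 7.85-fold lower (15.1 ± 1.32 TPM against 119 TPM as the mean of both WT libraries). The log2 change was -2.90 ± 0.21 (SE; limma adjusted p = 1.94e-08), or -2.32 with ERCC scaling.

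Il1b encodes IL-1β, which is made as an inactive precursor and cut by caspase-1. It was the most abundant member in 3 of the 4 libraries. Il1b (chromosome 2, 129364570 to 129371139, minus strand) stood at 495 and 505 TPM in WT versus 261 and 274 TPM in the KO-labelled libraries. The libraries within each group lay close together, and the mean was 1.87-fold lower, with a log2 change of -0.90 ± 0.23 (limma adjusted p = 0.00449). With ERCC scaling the change was -0.30 and did not pass (adjusted p = 0.275). Il1a thus made up 18.9% and 19.4% of the summed Il1a and Il1b TPM in WT, and 5.78% and 4.91% in the KO-labelled libraries. An antisense gene, Il1bos, overlaps Il1b and was at or under 0.99 TPM in each library. Gm14023, which overlaps Il1a on the other strand, was at or under 4.04 TPM. The authors' counting is not stated to use strand, so reads of a gene and its antisense partner cannot be told apart.

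Il18, whose product drives interferon-γ in lymphocytes, was low throughout. Il18 (chromosome 9, 50554827 to 50581840, plus strand) stood at 6.60 and 5.80 TPM in WT versus 4.02 and 3.41 TPM in the KO-labelled libraries, which corresponds to an estimated 29 to 48 reads per library. The log2 change was -0.61 ± 0.31 (limma adjusted p = 0.114). With both WT libraries as separate samples it passed as lower (adjusted p = 0.0173). Bco2, whose end overlaps that of Il18 on the opposite strand, went the same way, from 6.45 and 5.76 TPM in WT to 1.05 and 0.54 TPM.

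Il36g was the agonist that rose. IL-36γ is best known from skin and other epithelia. Il36g (chromosome 2, 24186476 to 24193568, plus strand) stood at 0.87 and 1.03 TPM in WT, an estimated 14 and 15 reads, versus 10.6 and 10.9 TPM in the KO-labelled libraries, an estimated 193 and 205 reads. The mean was 11.3-fold higher, the largest fold of the 9 members, and the log2 change was 2.59 ± 0.31 (limma adjusted p = 3.92e-06). Il36g passed the filter on low values through the KO-labelled libraries and 1 WT library, and its WT values alone would not have passed. It remained far below Il1b, which made up 89.5% and 90.6% of the summed agonist TPM in the KO-labelled libraries, against 80.1% and 79.7% in WT.

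Both chains of the IL-1 receptor rose from low levels. Il1r1, the ligand-binding chain (chromosome 1, 40225080 to 40317257, plus strand), stood at 2.83 and 2.02 TPM in WT versus 6.67 and 7.76 TPM in the KO-labelled libraries. Its mean was 2.98-fold higher (7.22 ± 0.77 TPM), with a log2 change of 1.26 ± 0.31 (limma adjusted p = 0.00323). Il1rap, the accessory chain shared by the receptors for IL-1, IL-33 and IL-36 (chromosome 16, 26581704 to 26730117, plus strand), stood at 6.56 and 6.61 TPM in WT versus 29.0 and 23.9 TPM in the others. Its mean was 4.02-fold higher, with a log2 change of 1.85 ± 0.26 (limma adjusted p = 2.16e-05). Il1rap also makes a soluble form, which gene-level TPM cannot separate. Gm20319, an antisense gene that overlaps Il1rap, moved with it, at 13.1 and 11.1 TPM in WT versus 51.5 and 42.6 TPM in the KO-labelled libraries.

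Il1rn, which encodes the IL-1 receptor antagonist, showed the largest rise among the inhibitors. Il1rn (chromosome 2, 24336853 to 24351494, plus strand) stood at 43.0 and 43.9 TPM in WT versus 264 and 185 TPM in the KO-labelled libraries. The KO-labelled libraries differed from each other more than those of WT, but the lower of them was still far above both WT libraries. The mean was 5.17-fold higher (224 ± 55.7 TPM), and the log2 change was 2.32 ± 0.23 (limma adjusted p = 2.92e-06). The value counts its secreted and intracellular forms together.

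Il1r2, the decoy receptor, was abundant in both groups. Il1r2 (chromosome 1, 40074079 to 40125231, plus strand) stood at 164 and 166 TPM in WT versus 205 and 239 TPM in the KO-labelled libraries. Both of the latter were above WT, and the mean was 1.34-fold higher, but the log2 change of 0.42 ± 0.22 did not pass (limma adjusted p = 0.127). It passed as higher with ERCC scaling (1.01, adjusted p = 0.00890) and with both WT libraries as separate samples (adjusted p = 0.0194). Il18bp, a secreted protein that binds IL-18 (chromosome 7, 102014885 to 102018690, minus strand), stood at 16.2 and 20.1 TPM in WT versus 11.0 and 10.2 TPM in the others. Its mean was 1.72-fold lower, with a log2 change of -0.73 ± 0.27 (limma adjusted p = 0.0350). That call was lost without WT replicate 2 (adjusted p = 0.0919), with ERCC scaling (-0.17, adjusted p = 0.518) and with quantile normalization (adjusted p = 0.0772). The end of Numa1 overlaps that of Il18bp on the opposite strand, and Numa1 was more abundant, at 78.2 and 76.0 TPM in WT versus 65.9 and 75.4 TPM in the KO-labelled libraries.

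**Figure D2:**
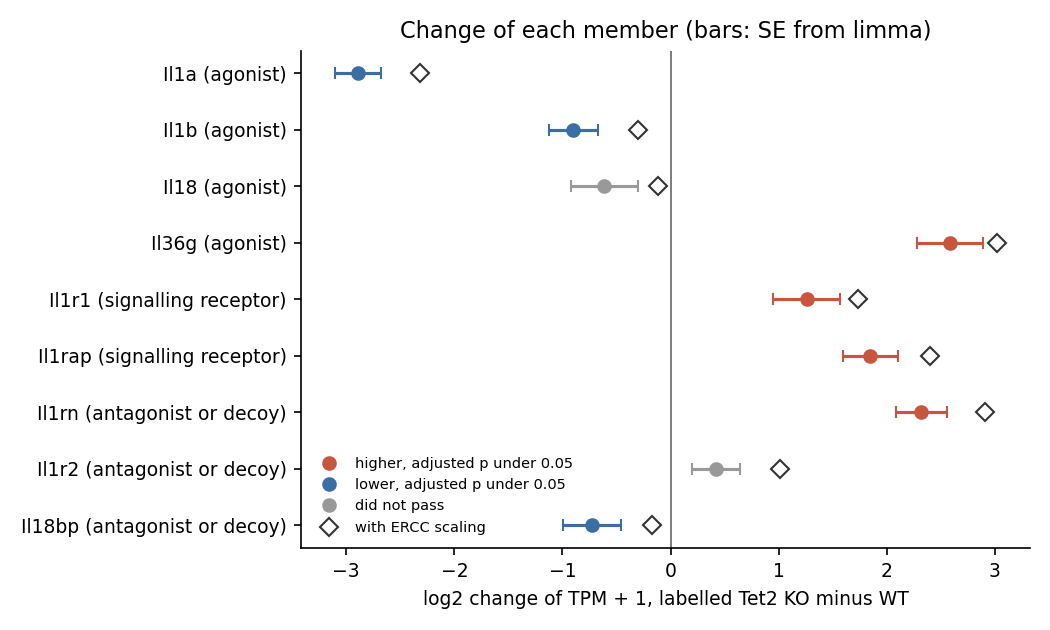
Points are log2 changes of TPM + 1 (KO-labelled minus WT) with limma standard errors, coloured by whether the member passed an adjusted p of 0.05, and diamonds are the same change after scaling to ERCC. Il36g, Il1r1, Il1rap and Il1rn lie above 0 and Il1a, Il1b and Il18bp below, and every diamond lies to the right of its point.

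The order of the members within a library differed between the groups. In WT, Il1b was followed by Il1r2, Il1a and Il1rn, each well apart from the next, and Il36g was last. Il18 and Il1rap did not differ beyond their spread there, at 5.80 to 6.61 TPM. In the KO-labelled libraries, Il1b, Il1rn and Il1r2 stood close together and their order changed between the libraries: Il1rn led with 264 TPM in replicate 1, and Il1b with 274 TPM in replicate 2. Il1a, Il36g and Il18bp followed Il1rap there, and Il18 was last in both.

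Agonists were set against the proteins that oppose them by ratios of TPM within each library, which no scaling of the library can change. The ratio of Il1rn to the sum of Il1a and Il1b was 0.0705 and 0.0701 in WT versus 0.952 and 0.641 in the KO-labelled libraries. It was thus 11.1-fold higher, a log2 difference of 3.47, and the SD of its log2 value over the KO-labelled libraries was 0.40. Antagonist transcripts stood well under those of the agonists in WT and near them in the KO-labelled libraries. With 2 libraries against 2, the exact permutation test cannot go below p = 0.333 (two-sided), which is the value it gave.

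The ratio of the decoy Il1r2 to the signalling receptor Il1r1 went the other way. It was 58.1 and 82.1 in WT versus 30.7 and 30.8 in the KO-labelled libraries, a log2 difference of -1.17 (exact permutation p = 0.333, the smallest possible). The decoy transcript exceeded that of the signalling receptor at least 30.7-fold in all 4 libraries. The ratio of Il18bp to Il18 was 2.46 and 3.47 in WT versus 2.72 and 3.00 in the others, so the groups overlapped (log2 difference -0.031, exact permutation p = 1). These were 3 ratios, and Benjamini-Hochberg adjustment cannot bring any of them under the threshold. Summed over the members, agonists stood at 618 and 633 TPM in WT versus 292 and 303 TPM in the KO-labelled libraries, and antagonists and decoys at 224 and 230 TPM against 480 and 434 TPM.

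**Figure D3:**
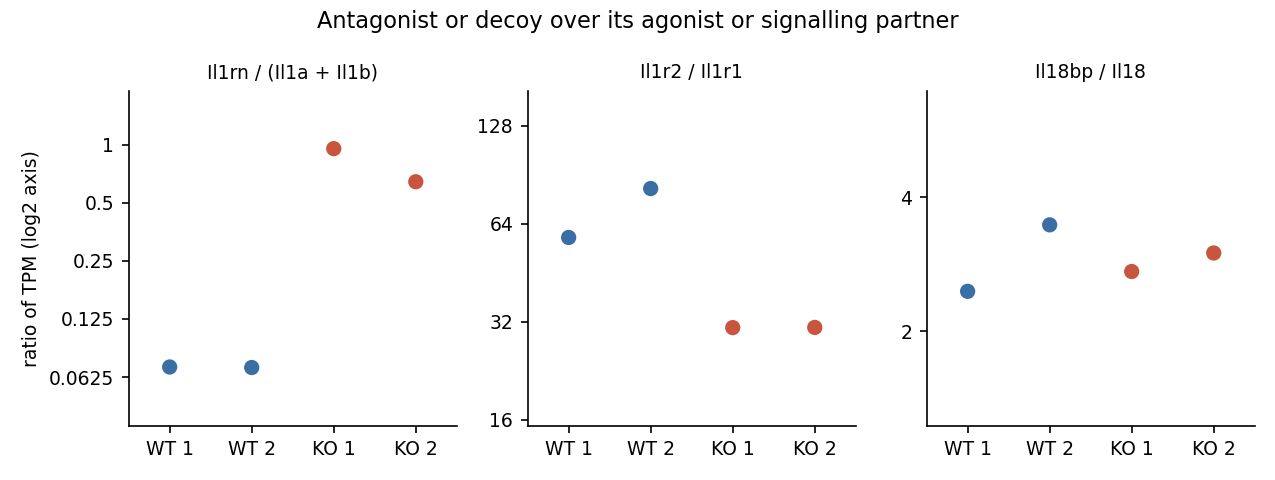
Points are ratios of TPM in each library on a log2 axis whose range differs between panels (blue, WT; red, labelled Tet2 KO). The ratio of Il1rn to Il1a plus Il1b lies near 0.07 in WT and at 0.952 and 0.641 in the others, that of Il1r2 to Il1r1 is lower in both libraries labelled Tet2 KO, and that of Il18bp to Il18 overlaps.

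The positions of the members in the genome group them in a way the selection did not use. Il1r2 and Il1r1 lie in a cluster of 6 IL-1 receptor family genes on chromosome 1 that spans 478 kb. Il1r1, Il1rl2, Il1rl1 and Il18rap rose. Il18r1 was also called higher, but it passed the filter on low values through the KO-labelled libraries alone, so its direction was fixed by the filter. Il1rl2, the IL-36 receptor, stood at 1.26 and 0.75 TPM in WT versus 16.5 and 12.6 TPM in the KO-labelled libraries, a log2 change of 2.94 ± 0.31 (limma adjusted p = 1.18e-06). Il1rl2 passed the filter on low values through the KO-labelled libraries and 1 WT library. Its ligand Il36g, which passed likewise, also rose in the KO-labelled libraries. Neither gene would have been tested on its WT values alone, so the joint rise of the pair is not free of the filter. Il18rap, the accessory chain of the IL-18 receptor, stood at 17.9 and 17.3 TPM in WT versus 74.2 and 75.3 TPM in the others (2.03 ± 0.19, adjusted p = 3.14e-07). The ligand-binding chain Il18r1 was at 0.53 and 0.62 TPM in WT versus 2.59 and 2.50 TPM in the others, and Il18 itself did not pass. Il1rl1, which encodes the IL-33 receptor ST2, rose from 1.27 and 1.05 TPM to 5.22 and 7 TPM (adjusted p = 0.000344), and Il33 was at or under 0.07 TPM in each library. The flanking gene Map4k4 was at 170 and 167 TPM in WT versus 209 and 172 TPM in the others and did not pass (adjusted p = 0.555). Slc9a4, on the other side, was at 0.95 and 0.79 TPM in WT versus 0.19 and 0.42 TPM in the others and was not tested.

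**Figure D4:**
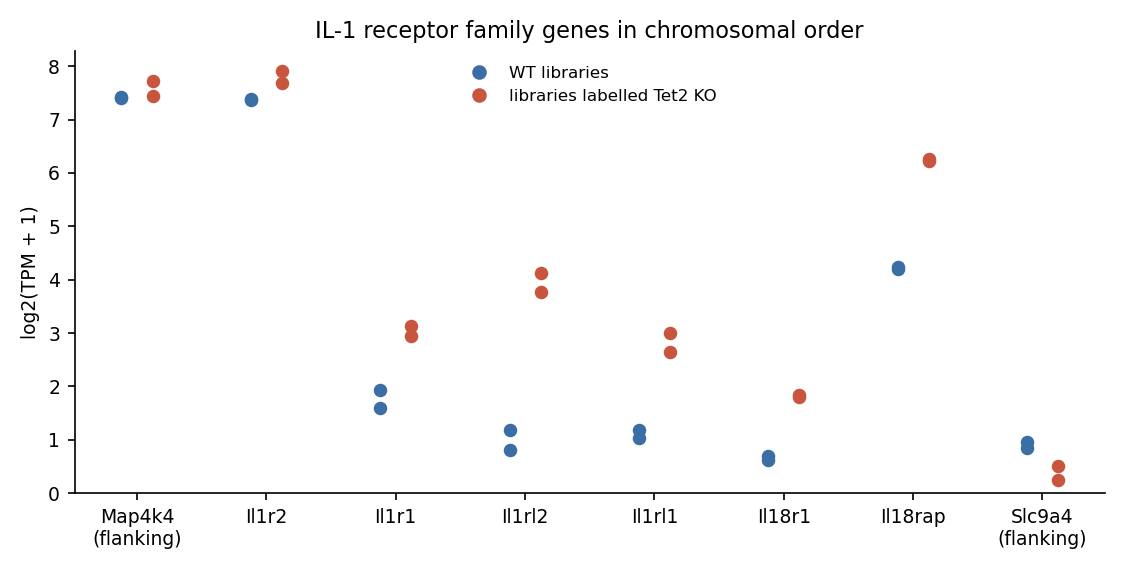
The log2(TPM + 1) of the 6 receptor family genes of chromosome 1 and of the nearest gene on each side is plotted in chromosomal order for each library (blue, WT; red, labelled Tet2 KO). Il1r1, Il1rl2, Il1rl1, Il18r1 and Il18rap are separated between the groups by more than the spread within them, and Il1r2 and Map4k4 less so. Slc9a4, the last gene plotted, lies under 1 TPM in every library and was not tested.

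On chromosome 2, Il36g and Il1rn lie in a cluster of 6 family genes spanning 198 kb. These 2 rose, while Il36a, Il36b, Il36rn and Il1f10 between or beside them did not exceed 0.30 TPM in any library and were not tested. Psd4, the next gene after Il1rn, rose as well, from 78.0 and 79.2 TPM to 147 and 131 TPM (limma adjusted p = 0.00358). Il1a and Il1b, both lower, lie far from this cluster on the same chromosome, within 71.5 kb of each other. Ckap2l, the gene next to Il1a, went the other way, from 21.64 and 22.03 TPM to 35.8 and 47.7 TPM (adjusted p = 0.00428).

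Beside the members, 4 lists of other genes of the pathway were examined, 67 genes of which 56 were tested. Of these, 20 rose (35.7%) and 21 fell (37.5%), against 22.1% and 26.7% over all genes. Of the 20, 3 passed the filter through the KO-labelled libraries alone (Il18r1, Csf3 and Cxcl1) and could only be called higher. Il1rl2, at 1.26 and 0.75 TPM in WT, would not have passed on its WT values either, so its call also leans on the filter. The median log2 change of the 56 tested genes was -0.14, beside -0.12 over all genes, or 0.44 with ERCC scaling. In the list of other family ligands and receptors, 4 of 5 tested genes were called higher, all of them in the chromosome 1 cluster and Il18r1 among them, and 1 fell. The gene that fell was Sigirr, an inhibitory receptor of the family, which stood at 23.0 and 24.7 TPM in WT versus 7.26 and 8.42 TPM in the KO-labelled libraries (-1.49 ± 0.28, limma adjusted p = 0.000357).

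In the receptor signalling list 3 of 18 tested genes rose (16.7%) and 5 fell (27.8%), against 22.1% and 26.7% over all genes. The median was -0.22, which turned to 0.37 with ERCC scaling. The 3 that rose were Irak3, Tollip and Peli2. Irak3, a kinase-dead relative of the IRAK kinases that restrains signalling, went from 21.4 and 20.6 TPM to 112 and 87.7 TPM (2.19 ± 0.20, limma adjusted p = 4.39e-07). Tollip, an adaptor that binds IRAK1, went from 46.0 and 43.6 TPM to 139 and 136 TPM (1.60 ± 0.19). Peli2, an E3 ubiquitin ligase of the Pellino family, went from 5.47 and 4.95 TPM to 23.0 and 15.6 TPM. Nfkb1, an NF-κB subunit, fell by 1.39 ± 0.21 on the log2 scale, from 301 and 294 TPM to 114 and 112 TPM. The kinase subunits Ikbkb and Ikbkg fell by 0.93 and 0.78, and both lost their call with ERCC scaling. Myd88, the adaptor of all these receptors, had a log2 change of -0.23 ± 0.22 and did not pass (adjusted p = 0.404; 0.36 with ERCC scaling).

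In the list of maturation and release genes 7 of 19 rose (36.8%) and 9 fell (47.4%), against 22.1% and 26.7% over all genes. The median was -0.32, or 0.27 with ERCC scaling. Casp1, which cuts the precursors of IL-1β and IL-18, fell from 93.5 and 104 TPM to 16.9 and 18.1 TPM (-2.43 ± 0.21, limma adjusted p = 1.17e-07). Mefv, which encodes the sensor pyrin, fell by 1.70 ± 0.19, and Ninj1, which ruptures the membrane of dying cells, fell by 1.72 ± 0.24. Pycard, the adaptor ASC that links sensors to caspase-1, went the other way, from 20.4 and 21.0 TPM to 175 and 192 TPM (3.09 ± 0.19, adjusted p = 3.24e-09). The neutrophil serine proteases Ctsg and Elane, which can cut IL-1 family cytokines outside the cell, rose by 3.42 ± 0.25 and 2.76 ± 0.25.

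Known target genes of IL-1 and IL-18 moved both ways, with 6 of 14 higher (42.9%) and 6 lower (42.9%). The shares over all genes were 22.1% and 26.7%. Of the 6 higher genes, Cxcl1 and Csf3 had passed the filter through the KO-labelled libraries alone. Il6 fell from 50.2 and 53.2 TPM to 0.51 and 1.14 TPM (-4.87 ± 0.33, limma adjusted p = 7.58e-09). Ptgs2, which encodes COX-2, fell from 82.6 and 81.5 TPM to 3.60 and 3.94 TPM, and Nfkbiz, a nuclear NF-κB cofactor, fell by 1.62 ± 0.22. The neutrophil chemokine Cxcl1 was listed at 0 and 0.24 TPM in WT versus 13.6 and 13.0 TPM in the KO-labelled libraries. Cxcl2 rose by 4.54 ± 0.21, and Lcn2, an iron-trapping granule protein, rose by 6.34 ± 0.30, from 121 and 125 TPM to 10393 and 9730 TPM.

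**Figure D5:**
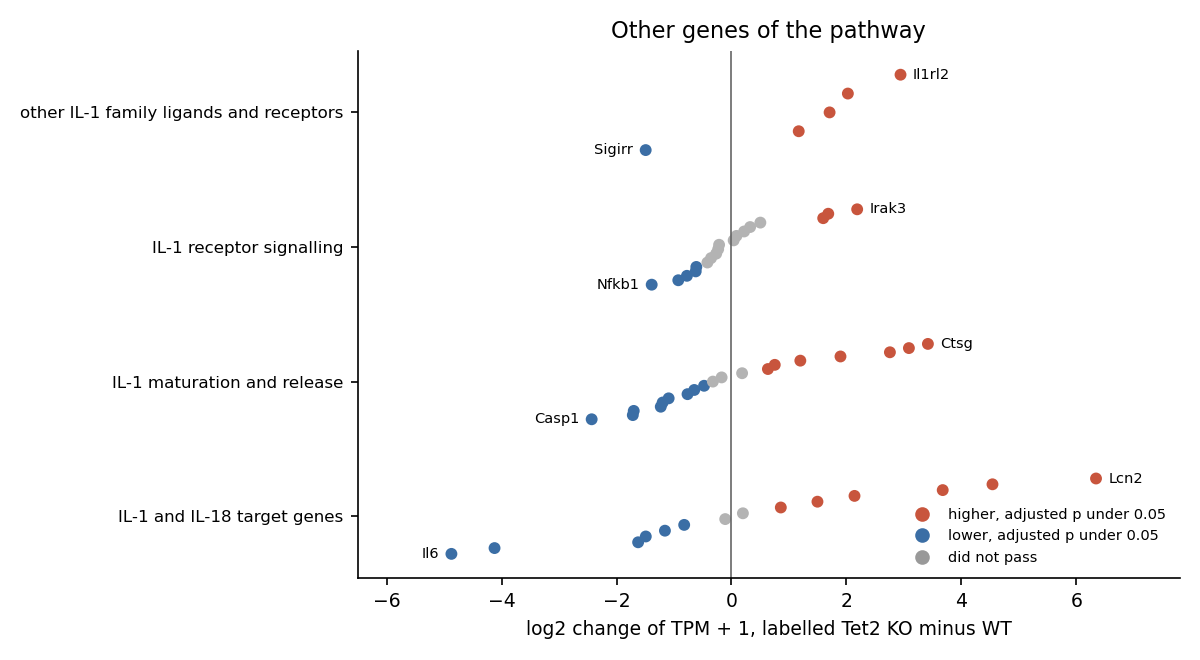
Each point is the log2 change of TPM + 1 (KO-labelled minus WT) of 1 tested gene of the 4 pathway lists, coloured by whether it passed an adjusted p of 0.05, with the outermost genes named. Each list holds genes on both sides of 0, from Il6 at -4.87 to Lcn2 at 6.34.

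Markers of mature myeloid cells moved with these results. Over all genes tested, 22.1% were called higher and 26.7% lower, the shares to set beside each marker count. Of 12 neutrophil markers 11 were called higher and 0 lower (Ly6g passed the filter through the KO-labelled libraries alone). Their summed level was 1540 and 1574 TPM in WT versus 97030 and 76407 TPM in the KO-labelled libraries. Most of each sum was S100a8 and S100a9. S100a8 stood at 520 and 521 TPM in WT versus 35305 and 27010 TPM, and S100a9 at 626 and 640 TPM versus 38264 and 33970 TPM. Ly6g, a defining marker, reached only 7.01 and 5.22 TPM in the KO-labelled libraries. The defining neutrophil marker Cxcr2 stood at 2.77 and 2.39 TPM in WT versus 621 and 511 TPM in the others. Neutrophils are known to express Il1r2, Il1rn and Il18rap, and the part of these cells in the changes was not tested. Of 10 monocyte and macrophage markers 1 rose and 6 fell, with sums of 4340 and 4338 TPM in WT versus 2596 and 2656 TPM in the others. The dendritic cell markers fell in 6 of 6 tested cases, with sums of 432 and 436 TPM against 63.7 and 44.4 TPM. Most of the WT sums was Ccr7, not a defining marker, at 267 and 272 TPM versus 1.80 and 2.54 TPM in the others. Of the 4 defining dendritic cell markers, Zbtb46 stood at 7.62 and 7.32 TPM in WT versus 0.91 and 2.17 TPM in the others. Siglech had a WT mean of 1.43 TPM versus 0 and 0.04 TPM. Siglech passed the filter through WT alone, and Clec9a and Cd209a did not exceed 0.53 TPM in any library. The part of these cells in the falls of Il1a, Il1b and Casp1 was not tested. In bulk RNA, fewer cells of a type and less RNA per cell cannot be told apart.

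Of 7 mast cell and basophil markers 4 were tested and called higher. Of these 4, 3 (Mcpt8, Cpa3 and Gata2) passed the filter through the KO-labelled libraries alone. The 7 markers summed to 4.07 and 4.73 TPM in WT versus 174 and 179 TPM in the others. Most of each sum was Hdc, at 2.72 and 3.19 TPM in WT versus 128 and 127 TPM. The defining markers Fcer1a and Ms4a2 did not exceed 1.68 TPM in any library and were not tested. Mast cells and basophils are known to express Il1rl1, and their part in its rise was not tested. Red pulp macrophage markers fell in 5 of 7 tested cases (sums of 3063 and 3079 TPM against 1141 and 1439 TPM). Most of these sums was Hmox1, at 2299 and 2319 TPM in WT versus 1041 and 1339 TPM in the others. The defining marker Cd163 fell, from 25.6 and 26.6 TPM to 1.28 and 2.50 TPM. Spic stood at 2.22 and 2.63 TPM versus 5.25 and 4.02 TPM, and Slc40a1 at 0.24 and 0.07 TPM versus 12.7 and 3.92 TPM, and neither passed the test. Lymphocyte markers were low: the NK cell markers Ncr1 and Klrb1c were at or under 0.04 TPM, and 7 T cell markers summed to 6.25 to 14.3 TPM and 5 B cell markers to 4.05 to 9.31 TPM. Erythroid markers summed to 1.36 to 3.41 TPM in 3 libraries and to 35.2 TPM in Tet2 KO replicate 2. The labelled myeloid identity was checked by 7 genes, all detected in every library, of which 4 were called higher and 1 lower. Over all genes tested, 22.1% were higher and 26.7% lower. Ptprc, which encodes CD45, stood at 292 to 413 TPM and the myeloid factor Spi1 at 508 to 662 TPM, and neither passed the test. Itgam rose from 148 and 150 TPM to 719 and 529 TPM. Cebpa rose from 14.3 and 12.6 TPM to 35.7 and 46.9 TPM. Runx1t1, the gene whose sequence forms the ETO portion of the fusion, rose from 31.6 and 30.9 TPM to 146 and 205 TPM. Cd34, a progenitor marker, fell from 60.6 and 60.7 TPM to 14.7 and 15.8 TPM. Kit was at 0.86 and 0.81 TPM versus 1.93 and 2.20 TPM and passed the filter through the KO-labelled libraries alone.

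Genes with the most similar pattern were sought for the most abundant agonist and for the decoy receptor, by the Euclidean distance of log2(TPM + 1) profiles centred over the 4 libraries. For Il1b these were Edn1, Lgals8 and Arhgap18, at distances of 0.021 to 0.027, and for Il1r2 they were Blzf1, Lrrc57 and Slc25a25, at 0.019 to 0.024. Edn1 was low, at 1.81 and 1.90 TPM in WT versus 0.51 and 0.56 TPM in the KO-labelled libraries. It passed the filter through WT alone, and its mean was 3.47-fold lower, against 1.87-fold for Il1b. Adding 1 to TPM narrows the change of such low genes, so their closeness holds on that scale only. Lgals8 stood at 96.2 and 99.1 TPM in WT versus 50.9 and 52.4 TPM in the KO-labelled libraries. With 4 libraries this describes a shared pattern of levels only.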

How the data were processed

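RNA-seq libraries (2 labelled WT, 2 labelled Tet2 KO) were made with a stranded mRNA kit, per the labels. The authors deposited TPM for 24589 rows, including 92 ERCC spike-ins, which were left out of all tests; per the submitters' processing notes STAR, RSEM and mm10 were used (no versions stated), and the annotation and use of strand are not given in the sources used here. Positions are from GENCODE on the same build.

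Groups were compared on log2(TPM + 1) by limma (version 3.58.1, run in R 4.3.3; trend and robust estimation), for genes with at least 1 TPM in at least 2 libraries. Adjusted p-values are Benjamini-Hochberg over all genes, two-sided. WT entered as the mean of both libraries, which leaves 1 residual degree of freedom and assumes that WT varies as the libraries labelled Tet2 KO do. Depth was estimated from low values of genes with 1 RefSeq mRNA of 600 to 2500 nt, taken minus 200 nt, of which 67.9% to 71.0% lay within 0.2 of a whole multiple; it is approximate.

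The members, lists and tests were chosen with earlier results of these data known. Named genes are the 9 members, up to 3 per direction with the largest change from each pathway list, the 3 most similar genes to Il1b and to Il1r2, defining markers and Tet2; overlapping and flanking genes, further receptor and marker genes, Myd88 and Xist were named after their values were seen. Alternatives covered sample number, pseudocount, filter, moderation, scaling and left-out libraries.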

Additional observations from a re-analysis of the deposited data

How the results depend on the processing

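No member changed direction under any of the 12 alternatives. Without the filter on low values, members higher and lower numbered 1 and 0 (4 and 3 as reported), other pathway genes 3 and 0 (20 and 21), and all genes 123 and 295 (2629 and 3182); this fit tested 18594 genes. With ERCC scaling 1 member was lower, 10 other pathway genes were lower, and all genes gave 4942 higher and 1492 lower calls (76.8% higher, against 45.2% as reported). Leaving out 1 library each, all genes higher ranged from 2651 to 4321 and lower from 3192 to 5674, the upper values coming without Tet2 KO replicate 1 or 2, when both WT libraries were samples and the lone other sample was assumed to vary as they do. With both WT libraries as samples, Il18 was added as lower and Il1r2 as higher; the replicate block gave the same members, with 3495 genes higher and 4461 lower. Replicate numbers are only shared labels: deviations of same-numbered libraries correlated at 0.012 over 8226 genes. The Il1r2 to Il1r1 difference was -0.85 with a pseudocount of 1. The Il18bp to Il18 difference changed sign, from -0.031 to 0.22 without WT replicate 2 and 0.038 without Tet2 KO replicate 1, and was -0.28 without WT replicate 1. The causes were not tested. Depth limits Il36g in WT and Il18.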
